A study of Homo sapiens with 18 samples.

Results

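The insulin-like growth factor binding proteins IGFBP1 to IGFBP7 and the IGF2 mRNA-binding proteins IGF2BP1 to IGF2BP3 were followed in RNA-seq of human induced pluripotent stem cells without PCGF6. They were taken by gene name and make up 10 of the 57133 genes in the count table, 7 binding proteins and 3 mRNA-binding proteins. All 10 names were found. In PCGF6-KO cells IGFBP3, IGFBP5 and IGFBP7 rose, and IGFBP4, IGFBP6 and IGF2BP3 fell. Among the mRNA-binding proteins IGF2BP2 took the place of IGF2BP1 as the most abundant transcript per length, while IGF2BP1 stayed higher by counts.

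The families share a name but not a structure or a function. IGFBPs are secreted proteins that bind IGF1 and IGF2 outside the cell, lengthen their half-life and control how much of them reaches the IGF1 receptor, and proteases release the ligand by cutting the IGFBP. IGFBP1 to IGFBP6 bind with high affinity, whereas IGFBP7 binds IGFs weakly. IGF2BPs are cytoplasmic RNA-binding proteins named for the IGF2 mRNA. They bind many other transcripts, including MYC and ACTB, and read N6-methyladenosine (m6A) on RNA. IGF2BP1 and IGF2BP3 are known as oncofetal genes, on in the embryo and in tumours and low in most adult tissues, while IGF2BP2 is expressed more widely.

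PCGF6 is the subunit that defines the variant Polycomb repressive complex PRC1.6, and the comparison asks which of these genes depend on it in pluripotent cells. The cells were PGP1, an established human iPSC line grown in mTeSR1 on Matrigel-coated plates, and the groups were WT cells, PCGF6-KO clone 1 and PCGF6-KO clone 2, with 2 libraries of total RNA each. Both clones came from CRISPR-Cas9 editing of the first exon of PCGF6 and each is 1 edited line, so that a property of a clone and an effect of the edit are separated only as far as the clones are alike. No source used here says that the libraries of a group came from separate cultures, and p-values then measure only the spread between these libraries, which may be technical.

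Libraries held between 15877396 and 18918609 counts. PCGF6 itself was counted 268 and 300 times in the WT libraries, 99 and 103 times in those of clone 1, and 187 and 159 times in those of clone 2. Its transcript level was lower in all 4 PCGF6-KO libraries than in WT and fell less in clone 2 than in clone 1, by 0.77 against 1.67 on the log2 scale (edgeR quasi-likelihood test of the difference between clones, log2 0.90, SE 0.15, adjusted p = 5.44e-05). The pooled PCGF6 call was lost when WT replicate 1 or WT replicate 2 was left out (edgeR adjusted p = 0.0511 and 0.0763). Of the 8 pluripotency markers, SOX2 and DNMT3B fell and 6 were not called, and their summed TPM was 8448 to 8719 in WT, 7310 to 7350 in clone 1 and 5954 to 6053 in clone 2. SOX2 was called in clone 2 (log2 fold change -1.04) but not in clone 1 (-0.41), and its pooled call was lost without WT replicate 1 or 2 (edgeR adjusted p = 0.0989 and 0.106) or clone 2 replicate 1 (-0.57). The WT cells thus carried the markers of their label. All 8 tested primitive streak and mesoderm markers rose in PCGF6-KO cells, from a summed TPM of 11.6 to 13.1 in WT to 1229 to 1605 in the clones, and 7 of 8 stromal and fibroblast markers rose. Of these, 6 mesoderm and 3 stromal markers would not have been tested on their WT counts alone. Over all genes tested, 14.9% were called higher and 8.7% lower. Marker RNA of other cell states thus moved together with the changes described here, and its part in them was not tested. In bulk RNA, fewer cells of a type and less RNA per cell cannot be told apart.

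To show where the families diverge, the 250 bases before the annotated start of 4 members are given from RefSeq promoter windows on GRCh38.p14, 5′ to 3′ on the strand of the gene. They were chosen as the member that fell most clearly among the mRNA-binding proteins (IGF2BP3), its relative with the opposite direction (IGF2BP2), and a rising and a falling IGFBP (IGFBP5 and IGFBP4). Capitals mark the sequence CACGTG, the E-box bound by the MGA-MAX partners of PRC1.6.
IGF2BP3 chr7:23470492-23470741 (- strand): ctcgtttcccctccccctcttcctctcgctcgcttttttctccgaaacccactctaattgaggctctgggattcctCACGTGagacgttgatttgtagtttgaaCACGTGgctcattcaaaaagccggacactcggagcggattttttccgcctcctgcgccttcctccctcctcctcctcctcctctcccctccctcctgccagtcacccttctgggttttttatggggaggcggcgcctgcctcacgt
IGF2BP2 chr3:185825043-185825292 (- strand): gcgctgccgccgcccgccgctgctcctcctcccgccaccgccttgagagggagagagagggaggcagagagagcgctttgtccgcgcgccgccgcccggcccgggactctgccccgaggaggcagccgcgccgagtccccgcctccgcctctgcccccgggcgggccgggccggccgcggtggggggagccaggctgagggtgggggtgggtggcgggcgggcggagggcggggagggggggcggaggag
IGFBP5 chr2:216695550-216695799 (- strand): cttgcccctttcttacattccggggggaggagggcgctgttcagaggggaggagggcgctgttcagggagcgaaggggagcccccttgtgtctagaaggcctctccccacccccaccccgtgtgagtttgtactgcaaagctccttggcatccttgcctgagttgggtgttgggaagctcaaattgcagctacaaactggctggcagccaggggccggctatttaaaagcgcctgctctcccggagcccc
IGFBP4 chr17:40443200-40443449 (+ strand): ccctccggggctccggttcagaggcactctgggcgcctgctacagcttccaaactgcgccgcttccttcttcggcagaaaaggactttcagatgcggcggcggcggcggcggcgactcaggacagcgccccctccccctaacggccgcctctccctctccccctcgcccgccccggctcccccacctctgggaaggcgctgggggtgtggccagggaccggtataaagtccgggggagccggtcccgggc

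The table held windows of 250 bases before and 50 bases after a start for 7 of the 10 members, 10 windows in all. IGFBP1, IGFBP7 and IGF2BP1 had no entry. CACGTG, which reads the same on both strands, was found in the window of IGF2BP3 and in no other member window. There it occurred 2 times, beginning 174 and 146 bases before the start, while 7.26% of all 35116 windows held it at least once and 0.664% at least 2 times. Neither GCGGGAA, the site of E2F6, nor CTTTGAT, the site of TCF/LEF factors, was found on either strand in any member window. Of all windows, 6.55% held the first and 2.62% the second, and neither motif overlaps CACGTG. The 250 bases shown for IGF2BP2 were 81.6% G or C with 32 CpG dinucleotides, against 56.8% and 15 for IGF2BP3, 61.2% and 8 for IGFBP5 and 71.6% and 24 for IGFBP4. A second IGF2BP2 start had its own window, not shown, with 32.8% and 2 in the 250 bases before it (chr3:185821143-185821392). These are descriptions of the letters in the windows, and binding was not measured here.

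A gene was called when its Benjamini-Hochberg adjusted p over all 17672 genes tested was under 0.05 and its log2 fold change was over 0.6 in size. Levels are given as CPM, the counts relative to a library size scaled by TMM, which centres the bulk of genes, and the median log2 fold change over all genes tested was 0.00. Of the 10 members, 9 passed the filter on low counts and IGFBP1 did not. IGFBP5 and IGFBP7 would not have passed on the WT libraries alone, so that they had to be higher in PCGF6-KO cells to be tested, and the counts over members are descriptions. In the comparison of the 4 PCGF6-KO with the 2 WT libraries, 6 of the 9 were called, 3 higher and 3 lower, where 23.6% of all genes tested were called, 14.9% higher and 8.7% lower. The remaining 3, IGFBP2, IGF2BP1 and IGF2BP2, had an adjusted p under 0.05 with smaller changes, as 37.1% of all genes had an adjusted p under 0.05. The filter on the WT libraries alone would have kept 4 IGFBPs, of which 1 rose and 2 fell. It would have kept all 3 IGF2BPs, of which 0 rose and 1 fell. For each of the 9 the CPM of PCGF6-KO and WT libraries did not overlap, 4 above and 5 below WT, against 57.1% of all genes tested (29.5% above and 27.6% below). The plot of CPM by library shows this gap for every tested member.

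**Figure D1:**
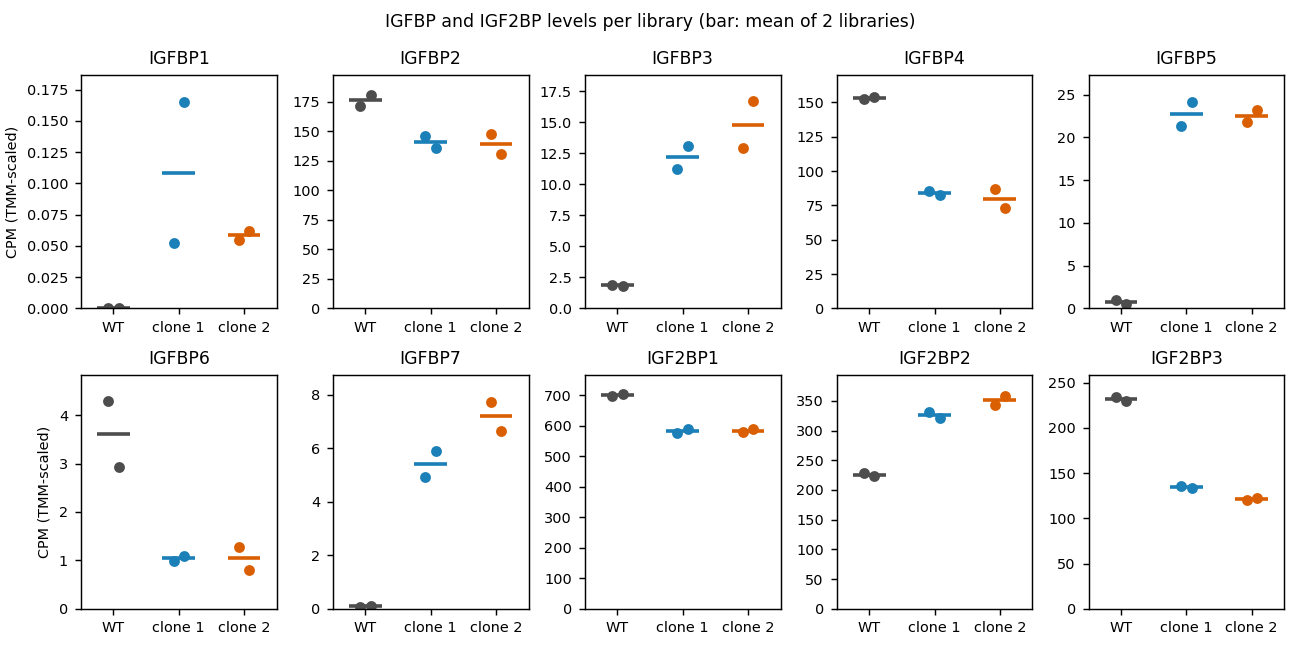
TMM-scaled CPM of each member in the 6 libraries (points: libraries, bars: mean of the 2 libraries of a group, each axis from 0 with its own scale). The 4 PCGF6-KO libraries of IGFBP3, IGFBP5 and IGFBP7 lie above both WT libraries and those of IGFBP4, IGFBP6 and IGF2BP3 below, while IGFBP1 rests on at most 3 counts in a library.

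IGFBP5 (ENSG00000115461, chr2:216672105-216695549, minus strand) binds IGFs and the extracellular matrix. It reached 16 and 9 counts (WT), 409 and 439 counts (clone 1) and 396 and 372 counts (clone 2) in the single libraries. All 4 PCGF6-KO libraries stood far above both WT libraries and the clones overlapped. Its CPM rose from 0.761 ± 0.314 (SD, n = 2) to 22.6 ± 1.26 (SD, n = 4), a log2 fold change of 4.89 (SE 0.21, edgeR adjusted p = 5.57e-07). IGFBP5 had to be higher in PCGF6-KO cells to be tested, so this p is a description only.

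IGFBP5 lies tail to tail with IGFBP2 (ENSG00000115457, chr2:216632828-216664436, plus strand), 7668 bases away in GENCODE 44. IGFBP2, another high-affinity binding protein, was counted 2798 and 3020 times in the WT libraries, 2786 and 2466 times in those of clone 1, and 2687 and 2098 times in those of clone 2. Relative to library size these counts corresponded to 176 ± 6.46 CPM in WT (SD, n = 2) and 140 ± 8.25 CPM in PCGF6-KO cells (SD, n = 4). The groups did not overlap, and the log2 fold change was -0.33 (SE 0.07, 95% interval -0.49 to -0.17, edgeR adjusted p = 0.00548), which misses the size needed for a call. These neighbours therefore moved in opposite directions, and the ratio of IGFBP5 to IGFBP2 TPM went from 0.00322 in WT to between 0.109 and 0.132 in the 4 PCGF6-KO libraries.

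IGFBP3 (ENSG00000146674, chr7:45912245-45921874, minus strand) carries most of the IGF in blood, in a complex with IGFALS. It reached 31 and 30 counts (WT), 215 and 238 counts (clone 1) and 234 and 268 counts (clone 2) in the single libraries. The groups did not overlap. From 1.85 ± 0.075 CPM (SD, n = 2) it rose to 13.5 ± 2.3 CPM (SD, n = 4), a log2 fold change of 2.86 (SE 0.22, edgeR adjusted p = 1.42e-05). Its partner IGFALS had at most 3 counts in every library.

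IGFBP1 (ENSG00000146678, chr7:45888360-45893660, plus strand), which the liver secretes under the control of insulin, lies 18584 bases from IGFBP3, again tail to tail. It had 0 counts in both WT libraries, 1 and 3 in clone 1 and 1 and 1 in clone 2. These values stay at or under the 3 counts that a count of 0 allows, so no fold was computed and a change of IGFBP1 was not detectable at this depth. The rise of IGFBP3 thus had no measurable counterpart in its neighbour.

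IGFBP7 (ENSG00000163453, chr4:57030773-57110385, minus strand) is a matrix protein of the vessel wall as well as a weak IGF binder. It was nearly silent in WT, with 1 and 2 counts, and reached 94 and 107 counts in clone 1 and 140 and 107 in clone 2. Summed over libraries and scaled, its level was 68.9 times that of WT (448 against 3 counts, exact 95% interval 23.4 to 335, for counting error only), and the groups did not overlap (edgeR adjusted p = 9.1e-06). That p is a description only, as IGFBP7 too had to be higher in PCGF6-KO cells to be tested. The gene overlaps POLR2B, which is on the opposite strand with 3487 and 3781 counts in WT and 3817 to 4308 in PCGF6-KO cells, and the strand setting of the counting is not given in the sources used here. POLR2B was not called (log2 fold change 0.06, SE 0.06, edgeR adjusted p = 0.498). The antisense gene IGFBP7-AS1 had 0 counts in WT and at most 6 in a PCGF6-KO library.

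The endothelial markers, with which IGFBP7 is often expressed, did not move as one. Of the 7 tested, KDR rose, CDH5, TIE1 and ERG fell, 3 were not called, and EMCN had at most 3 counts in every library. Over all genes tested, 14.9% were called higher and 8.7% lower. The list's summed TPM was 152 to 156 in WT and 332 to 384 in PCGF6-KO cells, and without KDR 50.5 to 54.4 and 49.2 to 52.4. For IGFBP3, IGFBP5 and IGFBP7, which stromal cells also express, the stromal markers COL1A1, COL1A2, COL3A1, LUM, DCN, PDGFRA and PDGFRB rose and THY1 fell, with a summed TPM of 564 to 572 in WT and 933 to 1024 in PCGF6-KO cells. The part of these cell states in the rise of the IGFBPs was not tested.

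IGFBP4 (ENSG00000141753, chr17:40443450-40457725, plus strand), an inhibitor of IGF signalling, was the most abundant binding protein of WT cells per length, though not by counts, in which IGFBP2 was higher. It was counted 2483 and 2563 times in the WT libraries, 1630 and 1500 times in those of clone 1, and 1578 and 1171 times in those of clone 2. All PCGF6-KO libraries were below WT. Its CPM fell from 153 ± 0.777 (SD, n = 2) to 82.0 ± 6.26 (SD, n = 4), a log2 fold change of -0.90 (SE 0.08, edgeR adjusted p = 3.06e-05).

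IGFBP6 (ENSG00000167779, chr12:53097436-53102345, plus strand), which prefers IGF2 over IGF1, reached 70 and 49 counts (WT), 19 and 20 counts (clone 1) and 23 and 13 counts (clone 2) in the single libraries. In absolute CPM the WT libraries differed more (2.94 and 4.30) than the PCGF6-KO libraries (0.81 to 1.27), but the groups did not overlap. It fell from 3.62 ± 0.964 CPM (SD, n = 2) to 1.04 ± 0.192 CPM (SD, n = 4), a log2 fold change of -1.78 (SE 0.27, edgeR adjusted p = 0.000916). The falling IGFBPs and IGFBP2 were the 3 most abundant IGFBPs of WT cells, and the rising ones all began below 2 CPM. As IGFBP5 and IGFBP7 had to be higher in PCGF6-KO cells to be tested, this contrast is a description only.

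IGF2BP3 (ENSG00000136231, chr7:23310209-23470491, minus strand) was counted 3807 and 3835 times in the WT libraries, 2605 and 2418 times in those of clone 1, and 2177 and 1966 times in those of clone 2. The groups did not overlap, and both libraries of clone 2 were below those of clone 1. Its CPM fell from 232 ± 2.82 (SD, n = 2) to 128 ± 7.88 (SD, n = 4), a log2 fold change of -0.86 (SE 0.07, edgeR adjusted p = 1.94e-05). The overlapping opposite-strand gene MALSU1, at 266 to 379 counts in all libraries, was not called (log2 fold change -0.18, SE 0.12, edgeR adjusted p = 0.258).

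IGF2BP2 (ENSG00000073792, chr3:185643130-185825042, minus strand) moved the other way, with 3720 and 3717 counts for WT, 6342 and 5831 for clone 1, and 6231 and 5741 for clone 2. The groups did not overlap. Its CPM was 226 ± 4.04 in WT (SD, n = 2) and 338 ± 15.9 in PCGF6-KO cells (SD, n = 4). The log2 fold change of 0.59 (SE 0.06, 95% interval 0.44 to 0.73, edgeR adjusted p = 0.000142) lay just under the size needed, so IGF2BP2 was not called in the pooled comparison, and it was called at 0.60 without WT replicate 1 or clone 1 replicate 1 and at 0.62 without clone 1 replicate 2.

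IGF2BP1 (ENSG00000159217, chr17:48997385-49056145, plus strand), the closest of the members to a HOX cluster at 0.269 Mb from HOXB13, had the highest level of the family in WT. It reached 11343 and 11735 counts (WT), 11015 and 10710 counts (clone 1) and 10471 and 9468 counts (clone 2) in the single libraries. Its CPM was 700 ± 4.68 in WT (SD, n = 2) and 583 ± 7.44 in PCGF6-KO cells (SD, n = 4), without overlap. The log2 fold change of -0.26 (SE 0.05, 95% interval -0.38 to -0.15, edgeR adjusted p = 0.00391) was well short of a call.

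The clones gave the same picture. Against WT, 6 of the 9 tested members were called in clone 1, 3 higher and 3 lower (all genes: 24.8%, with 16% higher and 8.8% lower), and 7 in clone 2, 4 higher and 3 lower (all genes: 29.4%, with 16.9% higher and 12.5% lower). The member added in clone 2 was IGF2BP2, at a log2 fold change of 0.64 (SE 0.06, edgeR adjusted p = 3.52e-10) against 0.53 in clone 1 (SE 0.06, edgeR adjusted p = 1.27e-08). These comparisons share the WT libraries. Tested directly, the clones differed in 0 members, while 7.87% of all genes were called between them (3.73% higher and 4.14% lower in clone 2). IGFBP7 and IGF2BP3 had an unadjusted p under 0.05 there, and DESeq2 also called 0.

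**Figure D2:**
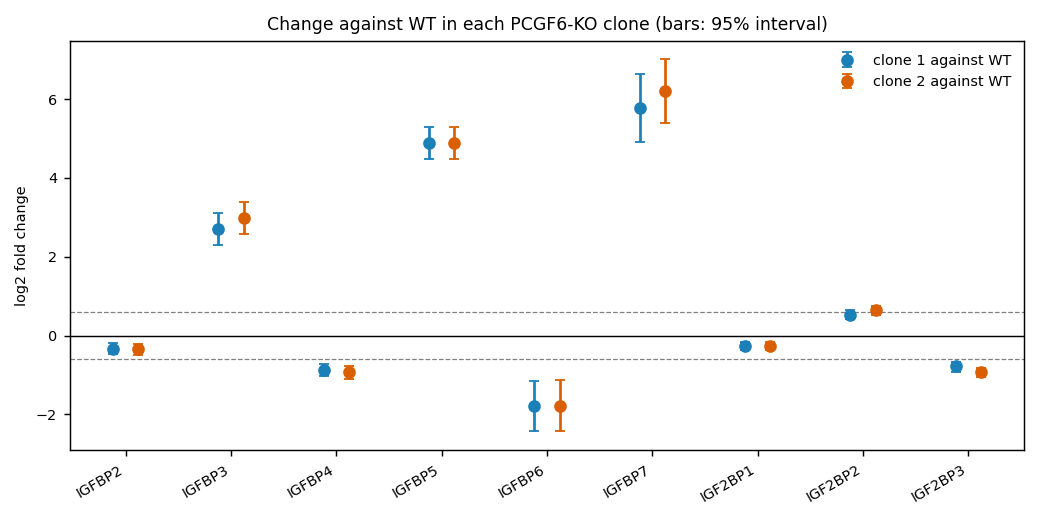
Log2 fold change of each tested member in clone 1 and clone 2 against WT, from the fit with 3 groups (points: estimate, bars: 95% interval, dashed lines: 0.6 in either direction). Both clones lie on the same side of 0 for all 9 members, and IGF2BP2 straddles the dashed line at 0.53 and 0.64.

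The intervals show how far the clones could still differ. IGFBP5 differed by -0.02 on the log2 scale (95% interval -0.24 to 0.21), IGFBP4 by -0.07 (-0.22 to 0.09) and IGF2BP1 by 0.00 (-0.10 to 0.11). IGFBP7 was higher in clone 2 by 0.42 (95% interval 0.05 to 0.79, edgeR adjusted p = 0.109) and IGF2BP3 lower by 0.15 (interval -0.28 to -0.03, edgeR adjusted p = 0.085), neither passing the adjustment. For IGFBP6 the interval of -0.78 to 0.79 is wide, as its counts were between 13 and 23 in the clones. PCGF6 transcript, by contrast, differed between the clones as given above.

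Levels of different genes were compared per length, as TPM, counts per base of gene length scaled to the same total in each library. The order depends on the deposited gene lengths, which may differ from those of the transcripts expressed here. By CPM in WT, IGFBP2 (176) was above IGFBP4 (153) and IGF2BP3 (232) above IGF2BP2 (226). In WT the order was IGF2BP1 (342), IGFBP4 (309), IGF2BP2 (212), IGFBP2 (165), IGF2BP3 (121), IGFBP6 (12), IGFBP3 (1.8), IGFBP5 (0.525), IGFBP7 (0.209) and IGFBP1, which was listed at 0. No neighbours in this order overlapped between libraries. In clone 1 the order began with IGF2BP2 (301), IGF2BP1 (280), IGFBP4 (167), IGFBP2 (129) and IGF2BP3 (69.1), and in clone 2 with the same genes at 305, 263, 149, 120 and 58.6. Below them IGFBP5, IGFBP7 and IGFBP3 lay at 15.5, 12.2 and 11.6 in clone 1 and at 14.4, 15.3 and 13.3 in clone 2. The ranges of IGFBP7 and IGFBP3 overlapped in clone 1, as did those of IGFBP7 and IGFBP5 and of IGFBP5 and IGFBP3 in clone 2. IGFBP6 had fallen to 3.4 and 3.17, below these 3, and IGFBP1 remained last in both clones.

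Summed over IGFBP1 to IGFBP6, the high-affinity binding proteins gave 485 and 492 TPM for WT, 329 and 323 for clone 1, and 319 and 283 for clone 2. Every PCGF6-KO library was below both WT libraries. The mean was 488 ± 5.53 (SD, n = 2) in WT and 314 ± 21.1 (SD, n = 4) in PCGF6-KO cells, 0.641 times as much, with p = 0.0667 in a two-sided exact permutation test, the smallest p that the 15 regroupings of 4 against 2 libraries allow. The test regroups libraries, not the 2 edited lines they came from, so its p does not measure the spread between lines. On the CPM scale, which does not divide by gene length, the log2 difference shrank from -0.64 to -0.37. The deposited lengths were 6442 bases for IGFBP5, 4767 for IGFBP2 and 2200 for IGFBP4. The TPM sum and its shares depend on them, and the lengths of the transcripts expressed here were not measured.

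The composition of this sum shifted as well. IGFBP4 went from 63.4% ± 0.214 (SD, n = 2) to 50.3% ± 1.28 (SD, n = 4) and IGFBP2 from 33.7% ± 0.95 to 39.7% ± 0.701. IGFBP3 and IGFBP5 together went from 0.477% ± 0.0633 in WT to 8.8% ± 1.33 in PCGF6-KO cells, between 7.62% and 10.6% in single libraries. They thus remained a minor part of the binding protein transcripts, in spite of their fold changes, and the sum followed IGFBP4 and IGFBP2.

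**Figure D3:**
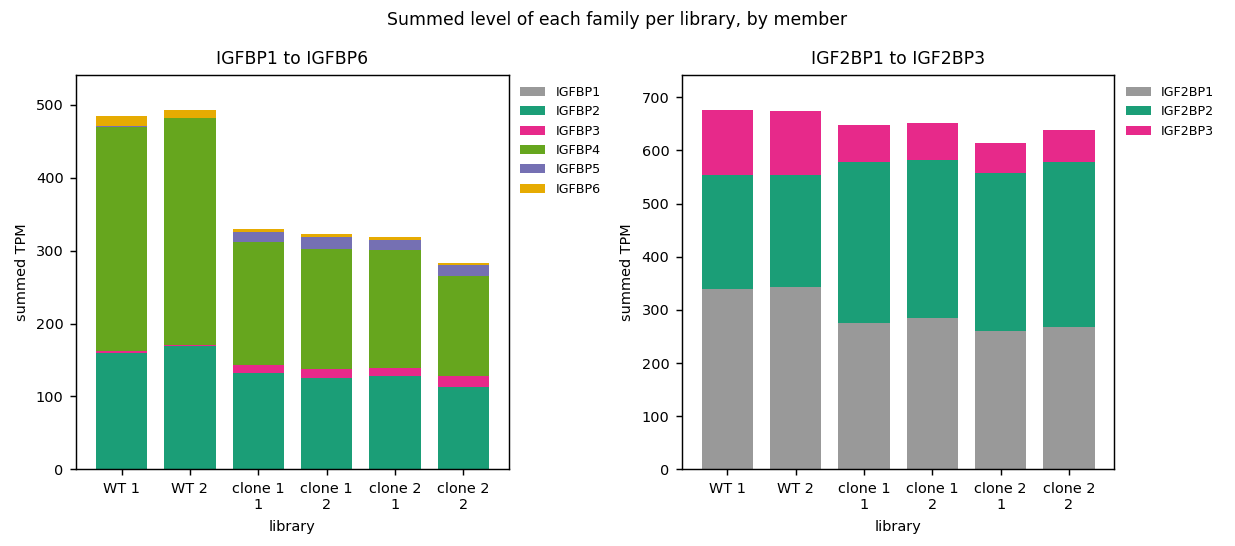
Summed TPM per library of IGFBP1 to IGFBP6 (left) and of IGF2BP1 to IGF2BP3 (right), stacked by member, with axes from 0. The binding protein sum is lower in all 4 PCGF6-KO libraries (283 to 329 against 485 and 492 in WT), while the mRNA-binding protein sum is 615 to 651 against 674 and 676 and changes mainly in its composition.

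IGF2BP1 to IGF2BP3 summed to 676 and 674 TPM for WT, 648 and 651 for clone 1, and 615 and 638 for clone 2. The groups did not overlap, but the sum in PCGF6-KO cells was 0.945 times that of WT (675 ± 1.06 against 638 ± 16.4, SD, n = 2 and 4 libraries, two-sided exact permutation p = 0.0667, the smallest possible, again over libraries and not lines). Within it IGF2BP2 went from 31.4% ± 0.424 to 47.5% ± 1.4, IGF2BP1 from 50.6% ± 0.562 to 42.5% ± 0.795 and IGF2BP3 from 18% ± 0.139 to 10% ± 0.747. The TPM ratio of IGF2BP2 to IGF2BP1 was 0.62 in WT and between 1.05 and 1.17 in the PCGF6-KO libraries, and that of IGF2BP2 to IGF2BP3 was 1.75 and between 4.33 and 5.25. Not divided by length, IGF2BP1 stayed above IGF2BP2 in PCGF6-KO cells, at a mean of 583.2 against 338.5 CPM.

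IGF2, whose protein the IGFBPs bind and whose mRNA gave the IGF2BPs their name, was counted 11 and 20 times in the WT libraries, 1606 and 1628 times in those of clone 1, and 3462 and 3220 times in those of clone 2. It was low in WT and high in every PCGF6-KO library, with a log2 fold change of 7.22 (SE 0.64, edgeR adjusted p = 3.71e-05), and it was higher in clone 2 than in clone 1 by 1.17 (SE 0.07, edgeR adjusted p = 3.75e-12). Set against the binding proteins, IGF2 TPM was 0.00111 of the summed TPM of IGFBP1 to IGFBP6 in WT, 0.151 in clone 1 and 0.35 in clone 2. IGF1 had at most 3 counts in every library, so IGF2 was the detectable IGF ligand.

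The list of IGF ligands, receptors and adaptors held 15 genes, of which 11 were tested, with a median log2 fold change of 0.31 against 0.00 over all genes. Of the 11, 5 rose and 0 fell, where 14.9% of all genes tested were called higher and 8.7% lower. Besides IGF2 the rising genes were the adaptors IRS1 (log2 0.66), IRS2 (0.83) and IRS4 (1.03), which pass the signal on from the receptors, and GRB14 (1.5), which restrains insulin receptor signalling (edgeR adjusted p = 0.00243, 0.00178, 0.00043 and 1.05e-05). The receptors themselves were not called. IGF1R had a log2 fold change of 0.31 (SE 0.10, edgeR adjusted p = 0.0325), IGF2R, which clears IGF2, 0.16 (SE 0.07, adjusted p = 0.127) and INSR -0.14 (SE 0.11, adjusted p = 0.361). IRS1 was called in clone 2 against WT (0.81) but not in clone 1 (0.49). Its pooled change was 0.59, under the size needed, without WT replicate 1.

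Among the IGFBP proteases and their regulators, 17 of 18 genes were tested, 11 rose and 2 fell, with a median log2 fold change of 1.20. Of these, PAPPA, HTRA3, ADAM12 and MMP1 would not have passed the filter on the WT libraries alone and had to be higher in PCGF6-KO cells to be tested, so the count and median describe the list only. Of the other 13, 7 rose and 2 fell, where 23.6% of all genes tested were called. PAPPA, the metalloproteinase that cuts IGFBP4, reached 9 and 6 counts (WT), 228 and 199 counts (clone 1) and 286 and 290 counts (clone 2) in the single libraries, without overlap. Its log2 fold change was 4.94 (SE 0.35, edgeR adjusted p = 9.35e-06). PAPPA2, which cuts IGFBP3 and IGFBP5, rose by 1.13 (SE 0.32, edgeR adjusted p = 0.0211). Without WT replicate 1 or 2 its change was as large, at 1.1 and 1.16, but no longer called (edgeR adjusted p = 0.129 and 0.113). Of the inhibitors of PAPPA, STC1 fell by 0.96 on the log2 scale (SE 0.10, edgeR adjusted p = 8.56e-05), whereas STC2, at 0.61 (SE 0.22, edgeR adjusted p = 0.0616), was not called in the pooled comparison. STC2 was called in clone 2 against WT (0.91, SE 0.09, edgeR adjusted p = 1.94e-09) and not in clone 1 (0.22, SE 0.09, edgeR adjusted p = 0.0524), and it was higher in clone 2 than in clone 1 by 0.70 (SE 0.09, edgeR adjusted p = 1.17e-06).

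ADAM12, which also cuts IGFBP3 and IGFBP5, rose by 3.79 (SE 0.60, edgeR adjusted p = 0.00122), with 11 and 5 counts in WT and 70 to 195 in PCGF6-KO cells. The secreted protease PRSS23 rose by 3.37, HTRA3 by 1.92, ADAMTS1 by 1.87, the gelatinase MMP2 by 1.45, FURIN by 1.20, PLAT by 0.98 and ADAM9 by 0.93 (edgeR adjusted p from 2.69e-06 to 0.0192). MMP1 was listed at 0 in WT, and its mean CPM in PCGF6-KO cells was at least 9.24-fold of the floor of 3 counts in a single WT library. MMP9 fell by 0.73 (SE 0.25, edgeR adjusted p = 0.0455), a call lost with the replicate number as a block (adjusted p = 0.0837) and without either WT replicate or either clone 1 replicate (0.0699 to 0.275). The calls of HTRA3 and ADAM9 were lost without either WT replicate (edgeR adjusted p 0.0831 to 0.13), and that of HTRA3 also with DESeq2 (adjusted p = 0.0579). Against WT, ADAM9 was called in clone 2 (1.27) and not in clone 1 (0.49), and MMP9 in clone 1 (-1.15) and not in clone 2 (-0.40). Several of the rising proteases are also products of stromal cells, and the part of cell state in their rise was not tested.

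Of 23 tested genes of the PI3K-AKT-mTOR pathway, PIK3R1, a regulatory subunit of PI3-kinase, rose by 1.40 (SE 0.08, edgeR adjusted p = 3.21e-06) and FOXO1, a transcription factor that AKT holds out of the nucleus, fell by 1.22 on the log2 scale (SE 0.09, edgeR adjusted p = 1.16e-05). The remaining 21 were not called, and the median log2 fold change was -0.06. Across all genes tested, 23.6% were called. An adjusted p under 0.05 was reached by 8 of the 23, against 37.1% of all genes. The plot of pathway genes gives the change of every tested gene of these lists.

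**Figure D4:**
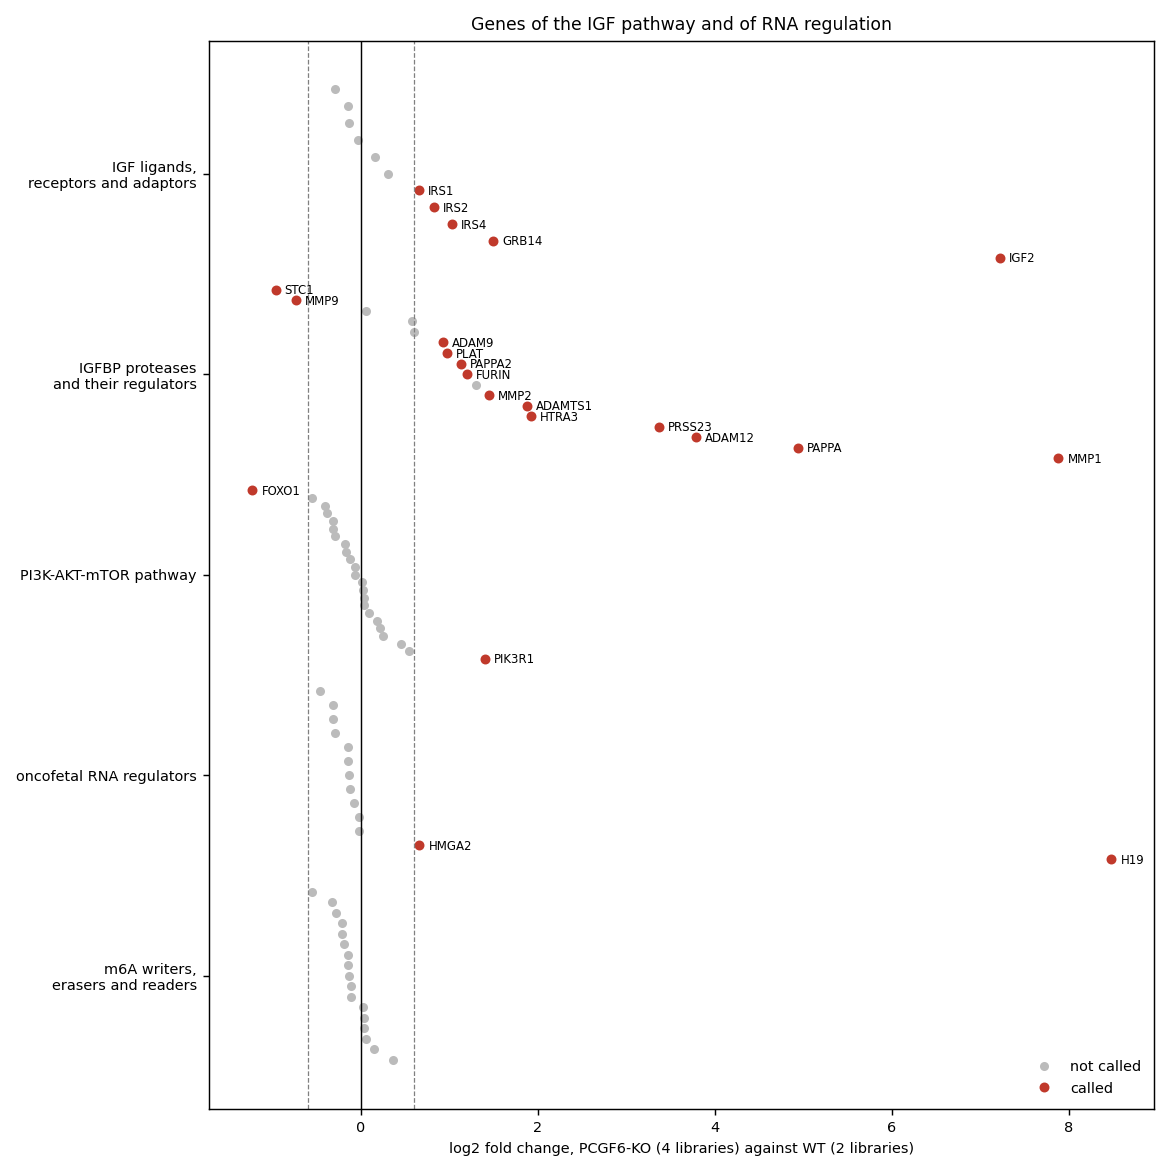
Log2 fold change of PCGF6-KO (4 libraries) against WT (2 libraries) for each tested gene of 5 lists, 1 point a gene (red and named: called, grey: not called, dashed lines: 0.6 in either direction, height within a list: rank only). Of the proteases 13 of 17 were called and of the m6A genes, a list without the IGF2BPs, 0 of 17, with 23.6% of all genes called and no test between lists. PAPPA, HTRA3, ADAM12 and MMP1 had to be higher in PCGF6-KO cells to be tested, and of the other 13 proteases 7 rose and 2 fell. The positions of MMP1 and H19 are fitted values against WT libraries with 0 to 3 counts.

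For the mRNA-binding proteins, the comparison lists were oncofetal RNA regulators and the m6A machinery. Of 13 tested oncofetal genes 2 rose and 0 fell (median log2 fold change -0.13), where 14.9% of all genes tested were called higher and 8.7% lower. H19, 1 of the 2 rising genes, would not have been tested on its WT counts alone. HMGA2, a chromatin protein whose mRNA IGF2BPs bind, rose by 0.66 (SE 0.14, edgeR adjusted p = 0.00662), but missed the size needed without WT replicate 1 (0.56) or clone 2 replicate 2 (0.60). HMGA2 was called in clone 2 against WT (0.83) and not in clone 1 (0.48). H19, the imprinted noncoding neighbour of IGF2, was counted 2 and 3 times in the WT libraries, 118 and 802 times in those of clone 1, and 261 and 2630 times in those of clone 2. All PCGF6-KO libraries were above WT, yet the libraries of each clone differed widely, and the pooled call was lost without either WT replicate (edgeR adjusted p = 0.107 and 0.106). The RNA-binding proteins LIN28A (log2 -0.29, SE 0.07, edgeR adjusted p = 0.0142) and LIN28B (-0.13, SE 0.09, adjusted p = 0.302), which like IGF2BP1 and IGF2BP3 belong to the fetal programme, were not called.

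Of the 17 tested writers, erasers and readers of m6A, 0 were called (edgeR, median log2 fold change -0.14), where 23.6% of all genes tested were called. An adjusted p under 0.05 was reached by 5 of the 17, against 37.1% of all genes. METTL3, the catalytic writer, had a log2 fold change of -0.55 (SE 0.08, edgeR adjusted p = 0.000596). IGF2BP1, IGF2BP2 and IGF2BP3, which also read m6A, were taken as members and were not in this list. The 0 thus leaves out IGF2BP3, which was called. The changes of the IGF2BPs stood beside a list of other m6A genes without a called gene.

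Other genes followed the called members closely over the 6 libraries. As a measure of likeness, the root mean square distance between centred log2 CPM was taken to each of the 13846 genes whose mean log2 CPM was 1 or more. Nearest to IGF2BP3 were ACAD8 (0.0218), a mitochondrial acyl-CoA dehydrogenase, and WDR35 (0.0322), a protein of cilium transport. Nearest to IGFBP4 were LRFN4 (0.0468) and PLBD2 (0.0615), to IGFBP6 FAM49A (0.125) and SPRY3 (0.139), and to IGFBP3 DTWD2 (0.0937) and ZNF204P (0.0952). Nearest to IGFBP5 were BAHCC1 (0.174) and the homeobox gene IRX2 (0.175), and to IGFBP7 LIMCH1 (0.175) and the homeobox gene HOXB4 (0.18), which was listed at 0 in WT. With 6 libraries in 3 groups, these distances describe a shared pattern of levels and nothing more.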

How the data were processed

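RNA-seq libraries of WT PGP1 cells, PCGF6-KO clone 1 and PCGF6-KO clone 2 (2 each) were grouped by the labels. The authors trimmed reads with Trim Galore (0.6.2), aligned them to GRCh38 with HISAT2 (2.1.0) and deposited raw featureCounts read counts per gene, with gene lengths. The annotation release, strand setting and treatment of multi-mapped reads are not given in the sources used here. ChIP-seq was not analysed here. Members, lists and naming rule were chosen with earlier results of these data known.

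Genes with low counts were removed with filterByExpr on the 2 genotypes, which left 17672. Counts were TMM-scaled and tested with glmQLFit and glmQLFTest of edgeR (4.0.16, limma 3.58.1, R 4.3.3), checked on simulated counts. A call needed p under 0.05 after Benjamini-Hochberg adjustment and a log2 fold change over 0.6 in size. The first fit compared 4 PCGF6-KO with 2 WT libraries. In the second, WT and the clones were 3 groups. TPM was computed from counts and deposited lengths, and family sums were compared by an exact permutation test. The exact interval of the IGFBP7 count ratio and the floor of 3 counts cover counting error only. Intervals of log2 fold changes come from the edgeR fits and include the spread between libraries. Positions and identifiers are from GENCODE 44 on GRCh38.

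The genes named are the members, PCGF6, called genes of the ligand and protease lists, IGF2, H19, IGF1R, INSR, IGF2R, LIN28A, LIN28B and HMGA2, the 3 called genes with the largest change of each other list, and the 2 genes most like each called member, Y-linked genes left out. IGF1, IGFALS, STC2, METTL3, POLR2B, MALSU1, IGFBP7-AS1 and further markers are named outside this rule, after their values were seen. Of 158 listed genes 154 were in the counts. Beside the lists of the report, 4 of 6 tested endoderm and liver markers rose, 2 of 6 neural markers rose and 1 fell, and 4 of 6 amnion and trophoblast markers rose. Over all genes tested, 14.9% were called higher and 8.7% lower. On WT counts alone, 4 of the tested endoderm, 1 of the neural and 3 of the amnion markers would not have been tested. Alternatives tried were other filters and thresholds, DESeq2 (1.42.0), upper-quartile or RLE factors, a replicate block, fits on only 2 of the groups, the mean of the clones, and leaving out each library.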

Additional observations from a re-analysis of the deposited data

Results flagged for a closer look

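Each named gene was checked for a library far from the others among the 4 PCGF6-KO libraries and for a difference between the clones, 70 genes in all, where chance sets apart a library in about 1 in 20 groups. Among the members, 1 library stood apart. It was clone 1 replicate 2 for IGFBP1, whose gap to the nearest library was 0.911 of the range of the 4, a difference of 3 against 1 counts.

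No member differed between the clones by the edgeR quasi-likelihood test. Of the other genes given by the naming rule, 15 did, each given here as clone 2 minus clone 1 on the log2 scale of the changes against WT. PCGF6 differed by 0.90. Of the ligands and imprinted genes, IGF2 differed by 1.17 and H19 by 1.82. Of the proteases, PAPPA2 differed by 0.67, ADAM9 by 0.77, ADAM12 by 1.21, MMP1 by 1.39, MMP9 by 0.76 and PRSS23 by 0.93. Of the markers, SOX2 differed by -0.63, HAND1 by 1.43, TBXT by 0.75, COL3A1 by 0.79, TFAP2B by 1.6 and GATA3 by 0.79. Apart from SOX2 all of these were higher in clone 2. Of the genes named outside the rule, STC2 and PDGFRA were also called between the clones, at 0.70 and 0.92.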

How the results depend on the processing

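Of 115 recomputations of a tested member's change, 111 left its direction and its side of the threshold as they were, and 4, all of IGF2BP2, moved it past the threshold (log2 0.60 to 0.62, one of them with at least 10 counts in every library, a filter that IGFBP5 and IGFBP7 did not pass). IGFBP2 and IGF2BP1 reached an adjusted p of 0.0829 and 0.0522 in single alternatives. The number of RNA regulator genes called, 2, became 1 with at least 10 counts in every library or a test against a fold of 1.5, 11 with adjusted p under 0.05 alone, and 0 to 2 without single libraries (0 without WT replicate 1, 1 without WT replicate 2 or clone 2 replicate 2). The number of all genes called, 4167, became 2621 against a fold of 1.5 and 6556 with adjusted p alone. The cause of these changes was not tested. Nothing reversed. The log2 difference of the summed IGFBP1 to IGFBP6 TPM was -0.67 to -0.59 without single libraries, -0.58 with IGFBP7 and -0.37 in CPM, and that of IGF2BP1 to IGF2BP3 was -0.09 to -0.06 and -0.14.

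Whether replicate numbers pair the samples is not settled. Between the 3 pairs of groups, replicate differences over 14850 genes correlated with Pearson's r of 0.03, 0.06 and 0.12 and Spearman's rho of 0.11, 0.11 and 0.23, and no source says that a number marks a shared batch. With the replicate block, 6 members were called in PCGF6-KO, 6 in clone 1, 7 in clone 2 and 0 between the clones, the same genes as without it, and 19 of the 20 IGF pathway genes and 3876 of all genes were called. With 2 libraries a group and 1 to 3 WT counts, the size of the IGFBP7 change is limited by depth.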
